A study of Homo sapiens with 8 samples.

Results

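The TRIM genes encode proteins with a tripartite motif, made of a RING finger, 1 or more B-boxes and a coiled coil. Their mRNA was followed in HCT116 cells and in a UHRF1-deficient clone of them. Members were the genes whose symbol is TRIM, a number and at most 1 further letter, without TRIM28, which gave 73 of the 60649 gene IDs in every table. TRIM5, TRIM14, TRIM21, TRIM22, TRIM25, TRIM26, TRIM31, TRIM34, TRIM38, TRIM56 and TRIM69 are known to respond to interferon. These 11 members are described against the other 62.

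Poly(A) RNA was sequenced in 8 libraries, 2 for each of 4 groups. HCT116 is a human colorectal cancer cell line, and UF1hypo is a single clone of it in which an exon of a single UHRF1 allele was excised, so that UHRF1 is heterozygous for a knockout. Each line was infected with a lentivirus carrying the control hairpin shScr or the hairpin shUHRF1 and grown as a stable pool under puromycin, which all 4 groups therefore share. The comparisons describe TRIM mRNA first on the knockdown in each line and then in the clone against its parent. Because UF1hypo is a single clone, its lower UHRF1 level and any other difference from the parent cannot be told apart. Values are TPM (transcripts per 1000000 transcripts), in which reads are scaled to gene length and every library adds up to the same total, so levels of different genes can be set side by side. Changes are differences of the mean log2(TPM + 1) in a limma fit over all 8 libraries. The added 1 makes changes of low genes look smaller than they are. A gene is said to have risen or fallen where its Benjamini-Hochberg adjusted p was below 0.05, and it was called where its absolute log2 fold change was also above 1. Nothing in the labels says that the 2 libraries of a group came from separate cultures, so the p-values measure only the spread between these libraries. With 2 libraries in each arm, the lowest two-sided p of an exact permutation test is 0.33, so no gene could pass on its own values.

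TRIM proteins mostly act as ubiquitin ligases through the RING finger, and a domain at the C terminus, often a PRY-SPRY domain, selects what they bind. Many restrict viruses or tune the sensors of foreign nucleic acid and the signalling that follows. Interferon raises a subset of them through a complex of transcription factors with STAT2 and IRF9, which binds the interferon-stimulated response element (ISRE) of a promoter. UHRF1, the protein depleted here, brings the DNA methyltransferase DNMT1 to newly replicated DNA.

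The ISRE was looked for in the promoter windows of RefSeq (GRCh38.p14), which run from 250 bases before to 50 bases after a start site. Its core was taken as GAAA, any 2 bases, GAAA on either strand. A window was available for 56 of the 73 members and for 10 of the 11 interferon-responsive ones, TRIM22 being without one. The core lay in a window of 6 of these 10 genes (60.0%), of 4 of the 46 others (8.70%) and of 1195 of all 27305 genes in the table (4.38%). The 6 matches are shown because they are the sequence feature that most of the responsive members share, each with 30 bases around the core on the strand of the gene. Capitals mark the core, which reads GAAA on the strand shown or TTTC where it lies on the other strand.
TRIM21: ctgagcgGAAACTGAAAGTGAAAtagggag
TRIM26: cgcctgaTTTCAGTTTCCATTTCgctgccc
TRIM5: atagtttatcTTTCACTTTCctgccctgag
TRIM34: gccccaaaaaTTTCACTTTCatttctcagg
TRIM14: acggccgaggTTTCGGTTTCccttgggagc
TRIM69: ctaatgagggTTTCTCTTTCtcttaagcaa

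TRIM21 and TRIM26 each held 2 overlapping cores. The TRIM21 stretch (chr11:4393663-4393692, minus strand) lies in an exon of TRIM21, and its cores span bases 18 to 33 after the start site. The TRIM26 stretch (chr6:30213578-30213607, minus strand) lies upstream of the gene, with the cores 194 to 179 bases before the start. In TRIM14 (chr9:98119229-98119258, minus strand) the core is also upstream, 26 to 17 bases before the start. The TRIM5 stretch (chr11:5685082-5685111, minus strand) and the TRIM69 stretch (chr15:44736456-44736485, plus strand) precede the RefSeq start by 27 to 18 and by 62 to 53 bases, and both fall in exons of longer GENCODE transcripts of the same gene. The TRIM34 stretch (chr11:5624901-5624930, plus strand), 90 to 81 bases before the start, lies in an intron of a longer TRIM34 transcript. The core of TRIM5 and that of TRIM34 are the same letters.

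The gamma-activated site (GAS), TTC, any 3 bases, GAA, which reads the same on both strands, was in no window of the 10 responsive genes. It was in a window of 12 of the 46 other members (26.1%) and of 9.38% of all genes. Among these 12 are TRIM49, TRIM49B, TRIM49C, TRIM64 and TRIM64B, similar copies from a recent primate expansion that were listed at 0 TPM in every library. The share of the other members therefore counts related promoters more than once. A match is a description of letters and not a proven binding site.

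As context for all comparisons, the aligned bases per library ranged from 5.42 to 7.84 gigabases, and no read counts are given, so the counting error of a gene is unknown. UHRF1 was at 87.5 and 98.4 TPM in the HCT116 controls against 31.7 and 32.7 TPM with shUHRF1, and UF1hypo started from 47.3 and 50.6 TPM and reached 34.1 and 21.1 TPM. The log2 fold change of UHRF1 was -1.50 on knockdown in HCT116 (limma, adjusted p = 0.0564), -0.84 on knockdown in UF1hypo (adjusted p = 0.0406) and -0.91 in UF1hypo shScr against HCT116 shScr (adjusted p = 0.0545). Of the epithelial markers, 6 of 7 were above 1 TPM in both libraries of every group, with a summed level from 3039 to 8798 TPM. VIL1 was the exception, at or near 0. None of 8 leukocyte markers was above 1 TPM in both libraries of any group, their summed level was between 1.73 and 4.28 TPM, and PTPRC was at most 0.0728 TPM. Endothelial markers summed to at most 0.587 TPM. The 4 fibroblast markers, almost all of it COL1A1, summed to between 21.1 and 28.6 TPM in the other groups and to 37.9 and 65.5 TPM in UF1hypo shUHRF1 (COL1A1 log2 fold change on knockdown in UF1hypo 0.94, adjusted p = 0.0518), with 1 of the 4 above 1 TPM in every group. Within the epithelial list, KRT20, a keratin of differentiated intestinal epithelium, rose on that knockdown (3.18, adjusted p = 7.51e-05) and EPCAM had a value of -0.55 (adjusted p = 0.188). The part of these shifts in the TRIM results was not tested. Replicates correlated with a Pearson's r between 0.979 in UF1hypo shUHRF1 and 0.996 in HCT116 shScr. The difference in log2(TPM + 1) between replicate 2 and replicate 1 was related to transcript GC content, with a Spearman's rho over genes of -0.814 in UF1hypo shUHRF1 and 0.508 in UF1hypo shScr (genes are not independent replicates). The median GC content of the transcripts was 49.9% for the interferon-responsive members and 51.7% for the others.

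Of the 73 members, 50 exceeded 1 TPM in at least 1 library and 42 in every library. The 27 members with a mean above 10 TPM formed the bulk of the family's mRNA. TRIM25, which ubiquitinates the RNA sensor RIG-I, had the highest mean over all libraries and in each group. It was followed by TRIM47, TRIM8, TRIM26, TRIM27, TRIM65 and TRIM11 over all libraries, but this order differed between groups, and in UF1hypo shUHRF1 TRIM21 came directly after TRIM25 and TRIM47. Another 10 members were detected without exceeding 1 TPM, among them TRIM63, a muscle ubiquitin ligase, and TRIM71, a stem cell regulator. The last 13 were listed at 0 in every library. These included 9 of the 11 members of the recent primate expansion of PRY-SPRY genes, such as TRIM49, TRIM64 and TRIM77, and none of those 11 exceeded 1 TPM. How reads that match several of these similar copies were assigned is not given in the sources used here, so a listed 0 is not proof of absence.

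Of the 9 protein-coding members that were detected without exceeding 1 TPM, 5 were listed at 0 in all 4 HCT116 libraries and were above 0 in both UF1hypo shUHRF1 libraries, as were 11.9% of the 3718 genes at such levels. They are TRIM43, TRIM50, TRIM60, TRIM61 and TRIM71, chosen after their values were seen. TRIM60 was at 0.273 and 0.860 TPM in UF1hypo shUHRF1 and TRIM61 was at 0.417 and 0.598, and both were listed at 0 in the other 6 libraries. TRIM71 was at only 0.0209 and 0.00977 TPM. These levels were too low for the test.

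The interferon-responsive members as a whole were ordered by group. Their summed level was 192 and 200 TPM in the HCT116 controls and 226 and 193 TPM in the HCT116 knockdown. It was 346 and 335 TPM in the UF1hypo controls and 625 and 654 TPM in the UF1hypo knockdown. Only the 2 HCT116 groups overlapped. The summed level of the other members was 795 and 779 TPM in the HCT116 controls and 758 and 715 TPM in the HCT116 knockdown. It was 796 and 826 TPM in the UF1hypo controls and 923 and 838 TPM in the UF1hypo knockdown. The other members were thus also highest in the UF1hypo knockdown, and none of their groups overlapped. In bulk RNA, fewer cells that express a gene and less RNA per cell cannot be told apart.

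**Figure D1:**
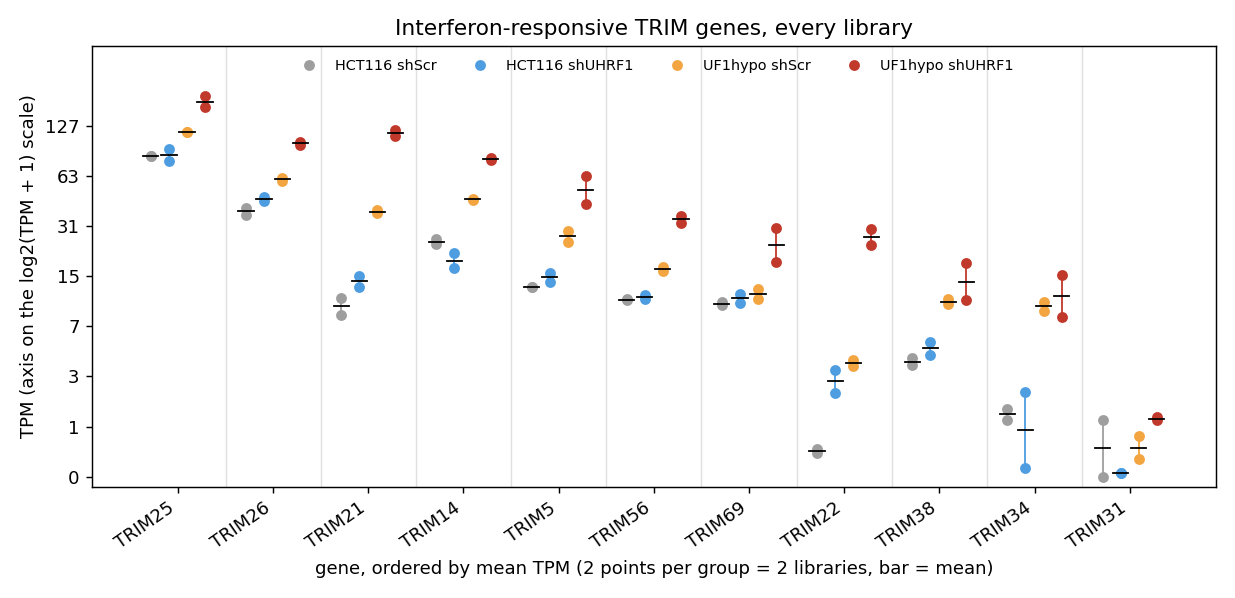
TPM of the 11 interferon-responsive TRIM genes in every library, on a log2(TPM + 1) axis, with 2 points per group and a bar at their mean. In UF1hypo shUHRF1 (red) TRIM21 reaches 111 and 119 TPM and TRIM22 23.7 and 29.8 TPM, above all other libraries, whereas the groups of TRIM38, TRIM34 and TRIM31 overlap in part.

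UHRF1 knockdown in UF1hypo raised 8 of the 11 interferon-responsive members and lowered none. The 8 were TRIM21, TRIM22, TRIM56, TRIM69, TRIM5, TRIM14, TRIM26 and TRIM25, and the log2 fold changes of all 11 were above 0. Of these, 2 were called, TRIM22 and TRIM21. Across all 13620 genes tested, 8.53% were called (7.39% higher and 1.14% lower), and 10.4% rose and 2.86% fell at the adjusted p alone. In 9 of the 11 members both knockdown libraries were above both controls, against 30.6% of all genes. The median log2 fold change was 0.81 for the 11 members and 0.04 for all genes. TRIM31 exceeded 1 TPM only in UF1hypo shUHRF1, so that its test depended on its being high there, and without it 10 of 10 were above 0, 8 of 10 were separate and higher and the median was 0.87. Once the libraries were corrected for GC content and length, the median of the 11 was 0.68 and TRIM5 and TRIM69 were called besides TRIM22 and TRIM21.

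TRIM22, a PRY-SPRY ubiquitin ligase that restricts viral transcription, was at 3.60 and 4.0 TPM in UF1hypo shScr and at 23.7 and 29.8 TPM in UF1hypo shUHRF1. It had the largest change of the 11, 7.04-fold in mean TPM, with a log2 fold change of 2.52 ± 0.23 (SE, adjusted p = 3.24e-04). TRIM21 is the cytosolic antibody receptor that sends antibody-coated viruses to the proteasome. Its level was 38.8 and 37.4 TPM in the controls and 111 and 119 TPM after knockdown. The log2 fold change was 1.57 ± 0.19 (adjusted p = 0.00114), and the call was kept under each of 17 alternative settings, with adjusted p-values up to 0.0269.

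The members just short of the fold threshold act at different steps of antiviral defence. TRIM56, which assists STING and Toll-like receptor signalling, went from 16.2 and 17.3 to 36.1 and 32.7 TPM, a log2 fold change of 0.99 ± 0.17 (adjusted p = 0.00700). TRIM69, a restriction factor of vesicular stomatitis virus, went from 12.4 and 10.6 to 18.4 and 30.0 TPM (0.97 ± 0.25, adjusted p = 0.0361). TRIM5, which recognises the capsid of incoming retroviruses, went from 29.1 and 24.8 to 42.6 and 63.0 TPM (0.92 ± 0.22, adjusted p = 0.0277). In all 3 genes both knockdown libraries were above both controls, but those of TRIM69 and TRIM5 lay far apart. Without UF1hypo shUHRF1 replicate 1, the log2 fold changes of TRIM5 and TRIM69 were 1.2 and 1.31, past the threshold for a call, and without replicate 2 that of TRIM56 was 1.06.

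TRIM14, an adaptor of the mitochondrial sensor complex around MAVS, rose from 45.6 and 45.2 to 79.1 and 81.3 TPM, a log2 fold change of 0.81 ± 0.17 (adjusted p = 0.0157). TRIM26, which regulates IRF3, rose from 61.5 and 59.2 to 102 and 97.5 TPM (0.72 ± 0.15, adjusted p = 0.0142). TRIM25, the RIG-I ligase, rose from 117 in both controls to 192 and 165 TPM (0.60 ± 0.15, adjusted p = 0.0351). The replicates of TRIM14 and TRIM26 were close to each other, and those of TRIM25 were close only in the controls.

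The remaining 3 responsive members did not pass the test. TRIM38, a brake on Toll-like receptor signalling, was at 10.6 and 9.95 TPM in the controls and 10.5 and 18.2 after knockdown, so the groups overlapped (0.40 ± 0.27, adjusted p = 0.384). TRIM34, a partner of TRIM5 in capsid binding, was at 10.2 and 8.96 against 8.15 and 15.3 TPM (0.21 ± 0.46, adjusted p = 0.805). TRIM31, a ligase of MAVS, was near the detection limit, with 0.271 and 0.745 TPM in the controls and 1.27 and 1.2 after knockdown (0.58 ± 0.35, adjusted p = 0.323). For TRIM34 and TRIM38 the higher value was that of UF1hypo shUHRF1 replicate 2, as it was for TRIM5 and TRIM69. Their transcript GC content was 43.8%, 40.6%, 42% and 46.5%. TRIM22, TRIM21 and TRIM14, also higher in replicate 2, were at 41.9%, 50.9% and 53.2%. TRIM25, TRIM26, TRIM56 and TRIM31, higher in replicate 1, were at 51.1%, 56.1%, 53.5% and 49.9%. The part of GC content in these differences was not tested.

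Among the other members, 37 were tested and their median log2 fold change was 0.13. Of these, 4 rose, 3 fell and 3 were called (TRIM55, TRIM29 and TRIM6), beside the 8.53% of all genes. The libraries were separate and higher in 14 and separate and lower in 11, against 30.6% and 18.3% of all genes. TRIM55 and TRIM17 exceeded 1 TPM only in UF1hypo shUHRF1, so that their test depended on their being high there. Without them 35 were tested and 2 called, 12 were separate and higher and 11 separate and lower, and the median was 0.12.

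**Figure D2:**
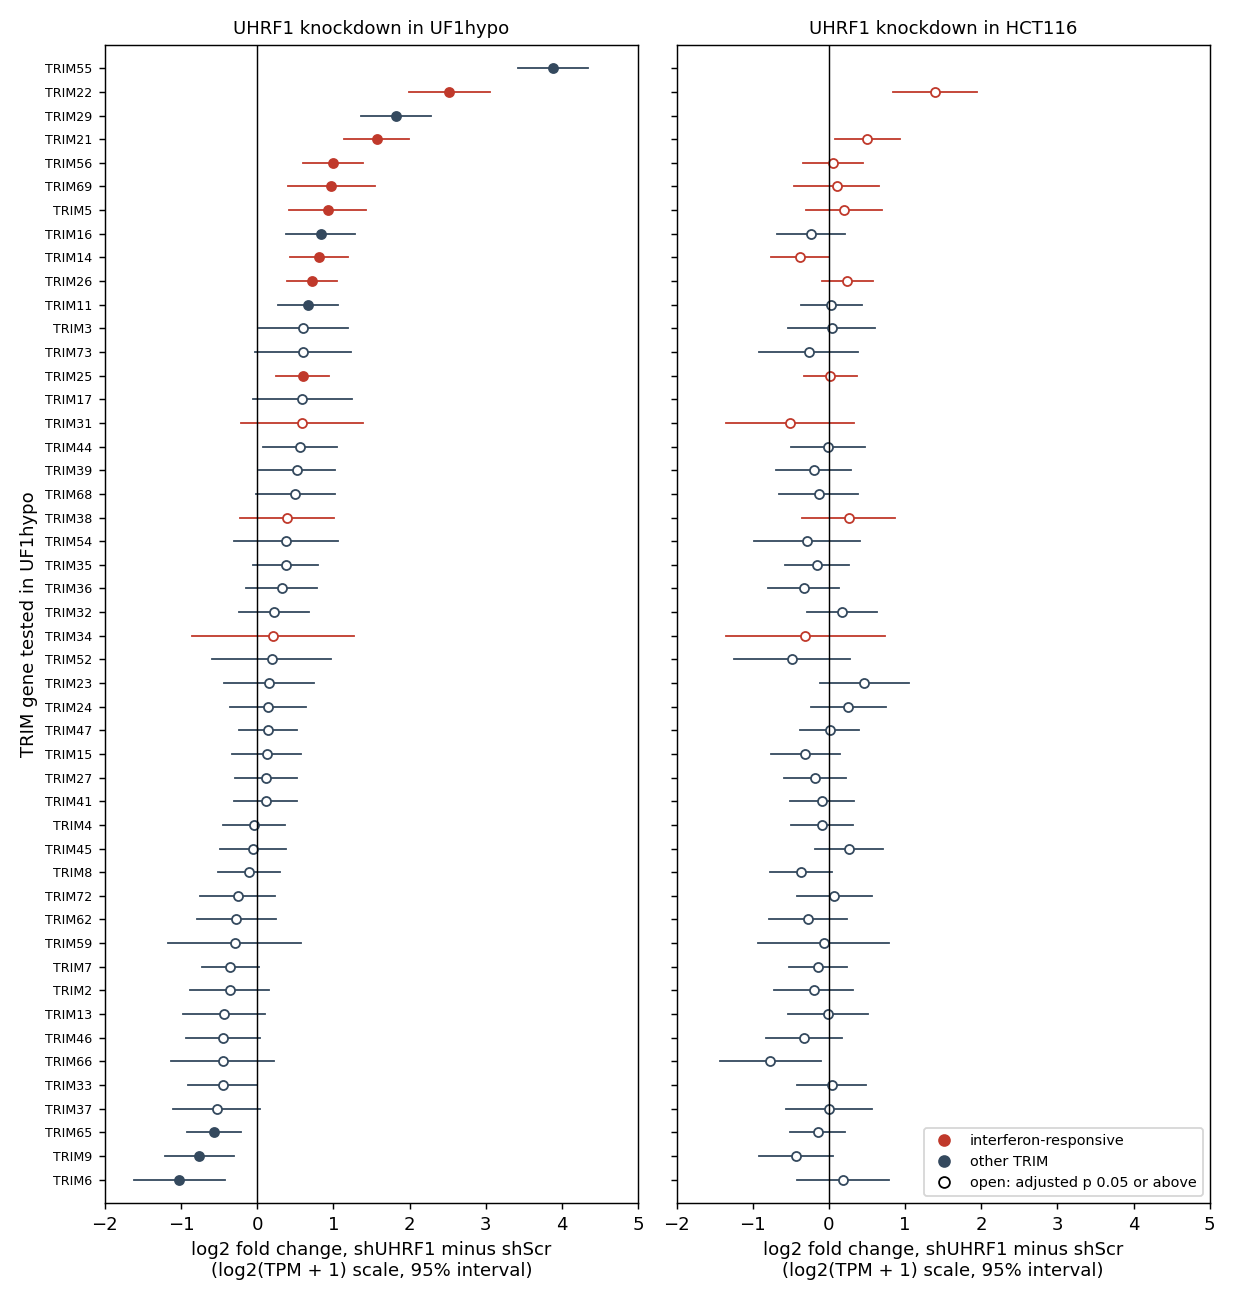
Log2 fold change with its 95% interval for each of the 48 TRIM genes tested in UF1hypo, on knockdown in UF1hypo (left) and in HCT116 (right), where filled points have an adjusted p below 0.05 and TRIM55, TRIM29 and TRIM17 were not tested in HCT116. In UF1hypo 15 points are filled, 12 of them to the right of 0, and in HCT116 none is.

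TRIM55, also known as MURF2, is a ligase of the muscle sarcomere on chromosome 8 (66126896 to 66175485). It had the largest log2 change of the members tested. It was at 0.522 and 0.839 TPM in UF1hypo shScr and at 23.7 and 23.6 TPM in UF1hypo shUHRF1, a log2 fold change of 3.88 ± 0.20 (adjusted p = 1.26e-05). It exceeded 1 TPM in no other group, and so entered the test only through the group in which it was high. With no filter on TPM its adjusted p was 5.80e-05. In HCT116 it was at 0.128 and 0 TPM with shScr and at 0.777 and 0.755 TPM with shUHRF1, below the level needed for the test. The related muscle gene TRIM54 was at 2.19 and 2.38 TPM in UF1hypo shScr and at 4.39 and 2.37 TPM after knockdown (0.38, adjusted p = 0.463), and TRIM63 was listed at 0 in 7 of 8 libraries.

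TRIM29, an epithelial member without a RING finger that takes part in DNA repair and inflammation, was at 2.13 and 2.18 TPM in UF1hypo shScr and at 10.6 and 9.70 TPM after knockdown. Its log2 fold change was 1.82 ± 0.20 (adjusted p = 8.11e-04). TRIM29 and TRIM55 were the 2 called members outside the responsive list that rose, and both stayed called under each of 17 alternatives.

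TRIM6, a ligase that makes free ubiquitin chains to activate the kinase IKBKE, went the other way. It was at 4.01 and 2.51 TPM in UF1hypo shScr and at 0.830 and 1.33 TPM after knockdown, with no overlap (-1.02 ± 0.26, adjusted p = 0.0355). The call was lost under 9 of 17 alternatives. Without UF1hypo shScr replicate 1 the log2 fold change was -0.76 (adjusted p = 0.277), without its replicate 2 it was -1.28 (adjusted p = 0.0598), and without UF1hypo shUHRF1 replicate 1 it was -0.85 (adjusted p = 0.0825).

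The other 4 members with an adjusted p below 0.05 changed less. TRIM16, which lacks a RING finger and acts in the clearance of damaged lysosomes, rose from 16.0 and 16.3 to 28.7 and 30.4 TPM (0.83, adjusted p = 0.0272). TRIM11, a PRY-SPRY ligase, rose from 43.0 and 51.6 to 84.2 and 67.2 TPM (0.66, adjusted p = 0.0387). TRIM65, a ligase of the RNA sensor MDA5, fell from 53.3 and 52.0 to 36.9 and 33.9 TPM (-0.56, adjusted p = 0.0477). TRIM9, a ligase of neurons, fell from 2.91 and 3.23 to 1.33 and 1.49 TPM (-0.76, adjusted p = 0.0406). TRIM9 and TRIM16 are named because they complete these counts, after their values were seen.

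**Figure D3:**
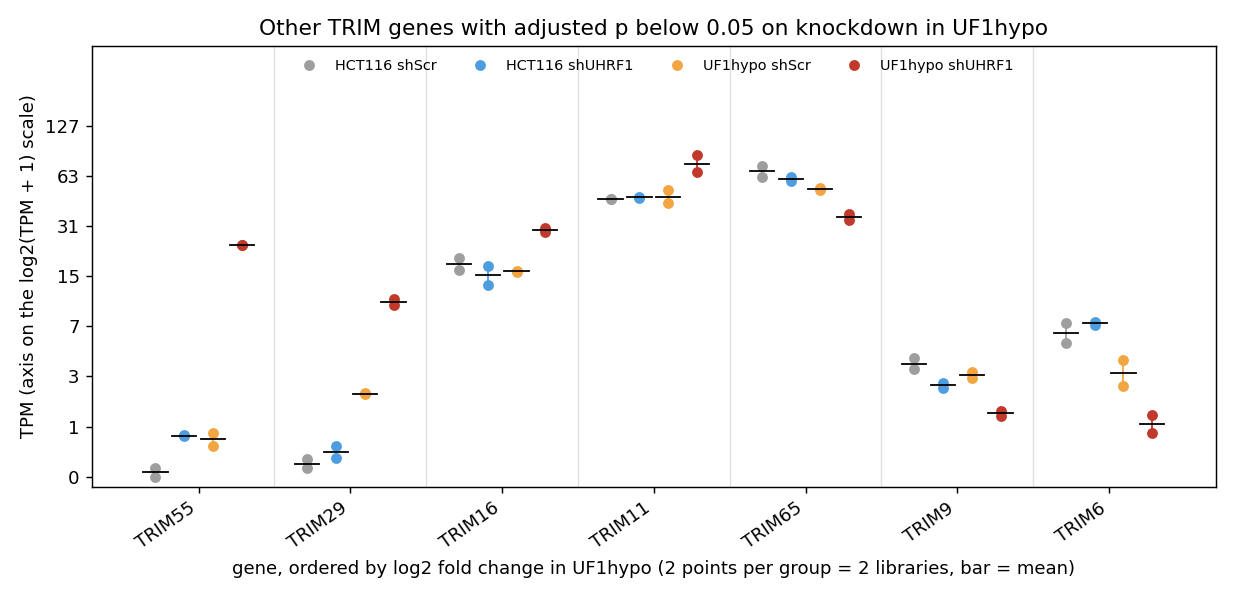
TPM in every library of the 7 TRIM genes outside the interferon-responsive list with an adjusted p below 0.05 on knockdown in UF1hypo, on a log2(TPM + 1) axis, with 2 points per group and a bar at their mean. TRIM55 stands at 23.7 and 23.6 TPM in UF1hypo shUHRF1 and below 1 TPM in the other 6 libraries.

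The most abundant of the remaining members did not pass the test. TRIM47 had a log2 fold change of 0.14 (adjusted p = 0.625), TRIM27 of 0.12 (adjusted p = 0.715) and TRIM8, a modulator of cytokine signalling, of -0.11 (adjusted p = 0.733). The direction of these 3 genes was not stable. Once GC content and transcript length were corrected for, TRIM47 and TRIM27 were at -0.13 and -0.06, and without UF1hypo shUHRF1 replicate 2 TRIM8 was at 0.10.

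By protein structure, the PRY-SPRY class held 25 of the 48 members tested on knockdown in UF1hypo and 11 of the 15 with an adjusted p below 0.05. In this class 9 rose and 2 fell, beside 10.4% and 2.86% of all genes. Within it, 7 of the 9 interferon-responsive members rose (median log2 fold change 0.81), and of the 16 others 2 rose and 2 fell (median 0.12). None of the 3 members with a PHD finger and bromodomain, which read chromatin like the excluded TRIM28, passed the test. Their log2 fold changes were 0.15 for TRIM24, -0.45 for TRIM33 and -0.45 for TRIM66. TRIM28 itself was at 738 and 683 TPM in UF1hypo shScr and at 745 and 540 after knockdown. None of the NHL members TRIM2, TRIM3 and TRIM32, which bind RNA or the cytoskeleton, passed either, with values of -0.36, 0.61 and 0.22. The 2 transmembrane members of the endoplasmic reticulum, TRIM13 and TRIM59, were at -0.44 and -0.30 (adjusted p = 0.269 and 0.660).

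Members with an ISRE core were compared with the rest. Among the 10 interferon-responsive genes with a promoter window, 5 of the 6 with the core rose (TRIM21, TRIM26, TRIM5, TRIM14 and TRIM69, but not TRIM34), with a median log2 fold change of 0.87. Of the 4 without it, TRIM25 and TRIM56 rose, TRIM31 and TRIM38 did not pass the test, and the median was 0.59. Of the other members tested, 3 had the core, and of these TRIM16 rose. Neither TRIM2 nor TRIM44 did. Of all genes tested on knockdown in UF1hypo, 10.4% rose. The values by core are counts of a few genes, and no difference was tested.

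UHRF1 knockdown in HCT116 changed no TRIM gene by the test, which UHRF1 itself also failed to pass, as given above. All 11 responsive members and 35 others were tested, and limma with Benjamini-Hochberg adjustment called none of them, as it called 9 of all 12704 genes (0.0708%). With only the 4 libraries compared in the fit, 89 of all genes were called, UHRF1 (adjusted p = 1.04e-04) and TRIM22 (adjusted p = 0.0231) among them. The absence of a call here is therefore not proof of no change. An unadjusted p below 0.05 was reached by TRIM22 and TRIM21 among the responsive members, by TRIM66 among the others and by 6.38% of all genes. The median log2 fold change was 0.10 for the responsive members, -0.13 for the others and -0.03 for all genes. Both knockdown libraries were above both controls in 6 of the 11 responsive members (TRIM5, TRIM21, TRIM22, TRIM26, TRIM38 and TRIM56) and below them in TRIM14, against 20.1% and 29.3% of all genes. TRIM22 and TRIM31 each exceeded 1 TPM in only 1 group of this comparison, and without them 5 of 9 responsive members were separate and higher. Of the 35 others, 4 were separate and higher and 12 separate and lower.

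TRIM22 was at 0.474 and 0.384 TPM in HCT116 shScr and at 3.40 and 2.19 TPM in HCT116 shUHRF1, the only group of the 2 in which it exceeded 1 TPM. The libraries were well separated, the mean was 6.52 times that of the controls and the log2 fold change was 1.39 ± 0.24 (unadjusted p = 2.88e-04 in limma, adjusted p = 0.102). It was called under 4 of 16 alternatives, and over all of them the adjusted p ranged from 0.00137 to 0.732, the latter without HCT116 shScr replicate 1. TRIM21 was at 8.32 and 10.9 TPM in the controls and 15.1 and 12.9 after knockdown (0.50 ± 0.19, unadjusted p = 0.0252 in limma, adjusted p = 0.614). TRIM14 was lower, at 24.1 and 25.6 against 21.2 and 16.9 TPM (-0.38 ± 0.17, adjusted p = 0.797). TRIM66, a chromatin reader, was at 12.3 and 13.6 against 7.90 and 6.52 TPM (-0.77, adjusted p = 0.645).

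UF1hypo shScr was then compared with HCT116 shScr, which sets the clone against its parent with the same hairpin. The UF1hypo shScr libraries are the controls of the knockdown in UF1hypo as well, and the HCT116 shScr libraries those of the knockdown in HCT116. In this comparison 7 of the 11 responsive members were higher in UF1hypo by the test and none was lower, against 3.41% of all genes higher and 1.36% lower. TRIM34, TRIM21, TRIM22, TRIM38 and TRIM5 were called, and 3.54% of all 12856 genes were (2.59% higher). The median log2 difference was 0.84 for the 11 members and -0.05 for all genes. In 10 of the 11, all but TRIM31, both UF1hypo libraries were above both HCT116 libraries, against 29.1% of all genes. Of the 36 others 1 was called, TRIM29, and their median was -0.15. TRIM22 and TRIM29 exceeded 1 TPM only in UF1hypo shScr of these 2 groups and so entered the test through the higher group. With no filter on TPM both were called (adjusted p = 0.0137 and 0.00825). TRIM31 and TRIM10 entered only through HCT116 shScr. Without members that entered through a single group, 9 responsive ones remained, of which 4 were called and 6 were higher by the test. In all 9 both UF1hypo libraries were above both HCT116 libraries, and the median was 0.84. Of the 34 others then left, 0 were called and the median was -0.15.

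On the log2(TPM + 1) scale TRIM34 had the largest difference of the responsive members, although the ratio of mean TPM was higher for TRIM22 (8.86 against 6.96). TRIM34 went from 1.55 and 1.2 TPM in HCT116 shScr to 10.2 and 8.96 TPM in UF1hypo shScr (log2 difference 2.15 ± 0.46, adjusted p = 0.0348). TRIM21 followed with 8.32 and 10.9 against 38.8 and 37.4 TPM (1.89 ± 0.19, adjusted p = 7.78e-04). TRIM22 went from 0.474 and 0.384 to 3.60 and 4.0 TPM (1.75 ± 0.24, adjusted p = 0.00435), TRIM38 from 4.19 and 3.66 to 10.6 and 9.95 TPM (1.2 ± 0.27, adjusted p = 0.0407) and TRIM5 from 12.7 and 12.8 to 29.1 and 24.8 TPM (1.02 ± 0.22, adjusted p = 0.0360). These 5 genes take part in restricting viruses or, for TRIM38, in limiting the response to them. TRIM14 (0.84, adjusted p = 0.0263) and TRIM26 (0.64, adjusted p = 0.0475) were also higher, below the fold threshold. TRIM29 was at 0.122 and 0.269 TPM in HCT116 shScr and 2.13 and 2.18 in UF1hypo shScr (1.40 ± 0.22, adjusted p = 0.00871).

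The number of calls in the clone depended on each library, for all genes as for the members, and it fell with any of the 4 left out. The median log2 difference of the responsive members was then 0.80 to 0.95. TRIM21 was called without each of the 4. Leaving out any of the 4 ended the calls of TRIM34 (adjusted p from 0.167 to 0.198), TRIM38 (0.222 to 0.250), TRIM5 (0.168 to 0.255) and TRIM29 (0.0569 to 0.102), while their log2 differences stayed at 0.90 or above. The call of TRIM22 ended without HCT116 shScr replicate 2 (adjusted p = 0.0538) or UF1hypo shScr replicate 2 (adjusted p = 0.0590). With the replicate number as a block, 2 of the 11 were called, and 369 of all genes in place of 455.

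Whether the knockdown acted differently in the 2 lines was tested by the difference of the effects in UF1hypo and in HCT116. It was called in 1 of the 11 responsive members, 2 of 38 others and 5.09% of all 13781 genes (4.54% with a higher value in UF1hypo). TRIM14 was the responsive member, with 0.81 in UF1hypo and -0.38 in HCT116, a difference of 1.18 ± 0.24 (adjusted p = 0.0271). TRIM55 differed by 3.15 ± 0.29 (adjusted p = 7.86e-04) and TRIM29 by 1.58 ± 0.29 (adjusted p = 0.0187), both with HCT116 levels under 1 TPM. TRIM55 exceeded 1 TPM only in UF1hypo shUHRF1, and TRIM29 only in the UF1hypo groups. Both therefore entered this test only through groups in which they were high. All 11 differences of the responsive members were above 0, with a median of 0.87, beside 0.17 for the others and 0.08 for all genes. That of TRIM22 was 1.13 (95% interval 0.37 to 1.89, adjusted p = 0.102) and that of TRIM21 1.07 (0.47 to 1.67, adjusted p = 0.0581), so a larger effect in UF1hypo was not established for them at this threshold. TRIM6 had the lowest value, -1.21 (adjusted p = 0.112).

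The calls of TRIM14 and TRIM29 ended when any library other than the 2 of UF1hypo shUHRF1 was left out (adjusted p from 0.0637 to 0.148 and from 0.0717 to 0.103). That of TRIM55 ended only with a pseudocount of 0.1 (difference 2.44, adjusted p = 0.0920). Without UF1hypo shUHRF1 replicate 1, the median difference was 1.00 for the 11 responsive members and 0.16 for all genes. Without replicate 2 these medians were 0.69 and 0.04. With the replicate number as a block, none of the 11 was called, beside 471 of all 13781 genes.

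**Figure D4:**
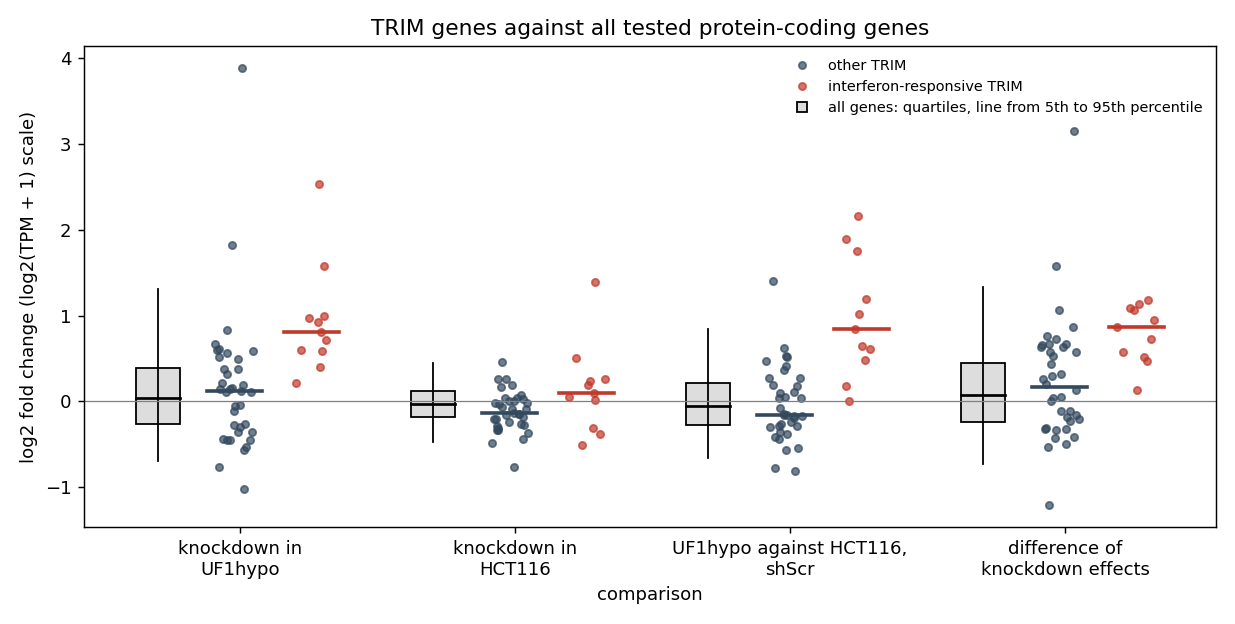
Log2 fold changes of the TRIM genes in the 4 comparisons, with each gene as a point, the median of each list as a bar, and all tested genes as a box of the quartiles with lines to the 5th and 95th percentiles. The interferon-responsive medians are 0.81, 0.10, 0.84 and 0.87 from left to right, and those of all genes lie between -0.05 and 0.08.

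In the order HCT116 shScr, HCT116 shUHRF1, UF1hypo shScr and UF1hypo shUHRF1, 5 of the 11 responsive members (TRIM21, TRIM5, TRIM22, TRIM56 and TRIM26) had both libraries of every group above both libraries of the group before. Of the 38 other members 1 did, TRIM29, and of all 13781 genes 2.37% did. For TRIM56 the first step was slight, from 10.7 and 10.5 to 11.3 and 10.7 TPM. TRIM14 missed the order at the first step, where it was lower, and TRIM25 at the same step, where its libraries overlapped. The order of the groups is not that of UHRF1 mRNA. It was lower in HCT116 shUHRF1, at 31.7 and 32.7 TPM, than in UF1hypo shScr, at 47.3 and 50.6 TPM.

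Members lie together on the chromosomes, and the short arm of chromosome 11 holds the largest expressed group, TRIM21, TRIM68, TRIM6, TRIM34, TRIM5, TRIM22 and TRIM3 between 4384897 and 6474459. All 7 exceeded 1 TPM. On knockdown in UF1hypo TRIM21 and TRIM22 were called higher and TRIM6 lower, although TRIM6 (5596109 to 5612958) is the neighbour of TRIM34 (5619764 to 5644398). Against HCT116, UF1hypo had 4 of the 7 called higher, beside 2.59% of all genes. TRIM6 was again lower, at 7.41 and 5.40 against 4.01 and 2.51 TPM (-0.81, adjusted p = 0.140). TRIM68 and TRIM3, which are not among the responsive members, had log2 fold changes of 0.50 and 0.61 on knockdown in UF1hypo and did not pass the test. In TRIM3 both knockdown libraries, at 42.0 and 26.7 TPM, were above the controls at 19.2 and 24.4 TPM.

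**Figure D5:**
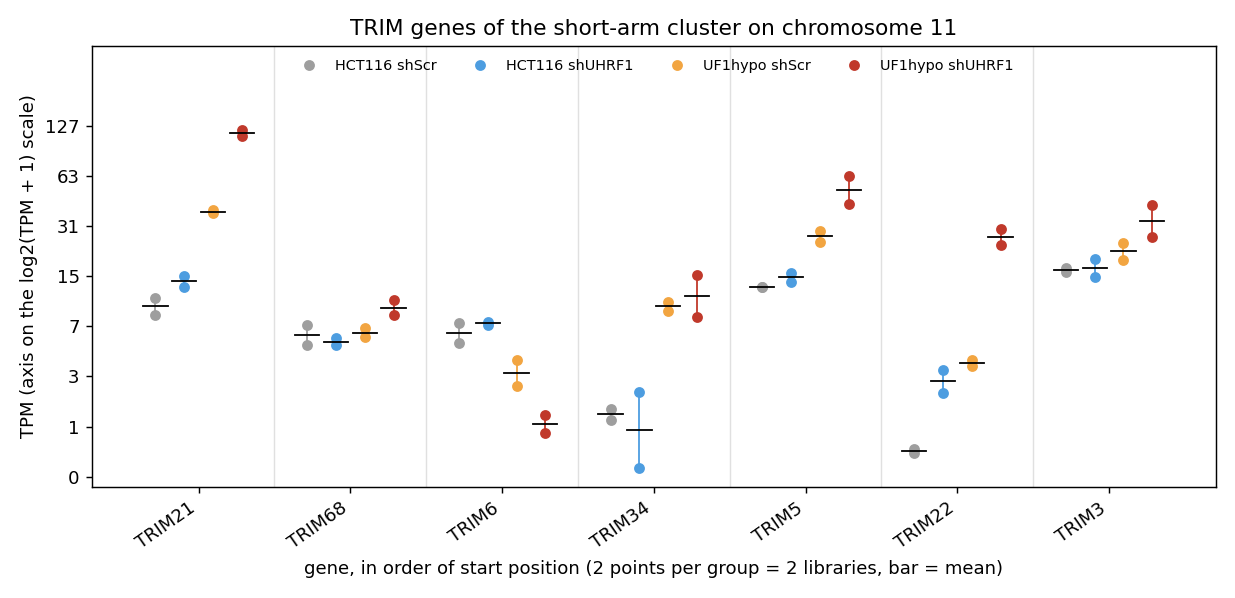
TPM in every library of the 7 TRIM genes on the short arm of chromosome 11, in order of start position, on a log2(TPM + 1) axis, with 2 points per group and a bar at their mean. TRIM6 falls to 0.830 and 1.33 TPM in UF1hypo shUHRF1, while TRIM21, TRIM5 and TRIM22 on either side reach their highest values there.

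Of the exonic bases of TRIM34, 83.6% are shared with the readthrough gene TRIM6-TRIM34, as are 29.2% of those of TRIM6. The readthrough was listed at 0 TPM in 7 libraries and at 0.778 TPM in HCT116 shUHRF1 replicate 2, where TRIM34 was at 0.134 TPM against 2.23 in replicate 1. The split of reads between them is uncertain there. The 6 members in the major histocompatibility region of chromosome 6 (30102897 to 30343729), TRIM31, TRIM40, TRIM10, TRIM15, TRIM26 and TRIM39, had no call in any comparison, and TRIM26 rose below the fold threshold as given above. Neither did the 3 members near the end of the long arm of chromosome 5, TRIM7, TRIM41 and TRIM52. The 5 members of the second group on chromosome 11 (89710299 to 90042025), among them TRIM77 and TRIM49, were listed at 0 throughout. Whether reads were counted by strand is not given in the sources used here. Values are therefore uncertain where a member overlaps a gene on the other strand, as for 51.6% of the exonic bases of TRIM47. TRIM73 and TRIM74 are known as closely similar copies, and their values are uncertain for that reason.

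Genes that TRIM proteins act on, or that induce them, were followed beside the family. Of 17 tested genes of nucleic acid sensing and interferon signalling, knockdown in UF1hypo raised 8 and lowered STING1, with 6 called higher and a median log2 fold change of 0.75. Of all genes tested there, 10.4% rose, 2.86% fell and 7.39% were called higher. These 17 genes, too, were listed with earlier results of these data known. IFIH1, which encodes MDA5, went from 41.4 and 38.8 to 105 and 144 TPM (1.59, adjusted p = 0.00163). DDX58, which encodes RIG-I, the substrate of TRIM25, went from 30.2 and 23.5 to 57.1 and 110 TPM (1.54, adjusted p = 0.0193). Of the ISRE-binding factors, IRF9 rose from 30.9 and 32.5 to 109 and 106 TPM (1.73, adjusted p = 5.45e-04) and STAT2 by 1.18 (adjusted p = 0.00138). The adaptor of RIG-I, MAVS, to which TRIM14 and TRIM31 bind, was at 42.3 and 46.3 against 45.0 and 39.1 TPM (-0.08, adjusted p = 0.788). In HCT116 none of the 17 was called and none had an unadjusted p below 0.05 in limma, against 0.0708% and 6.38% of all genes. UF1hypo shScr had 8 of the 17 called higher than HCT116 shScr, beside 2.59% of all genes. The difference of the knockdown effects was called in IFIH1, IRF7, ISG15 and IRF9, all with a higher value in UF1hypo, beside 4.54% of all genes.

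Of the 8 further genes with a tripartite motif or a close relation to one but another symbol, 6 were tested. PML, the interferon-induced organiser of nuclear bodies, went from 39.8 and 42.9 to 136 and 115 TPM on knockdown in UF1hypo (1.57, adjusted p = 0.00114). TRIML2 went from 10.3 and 8.46 to 57.7 and 82.6 TPM (2.76, adjusted p = 1.73e-04). In HCT116 neither passed the test, with 22.5 and 17.0 against 25.1 and 26.9 TPM for PML and 15.5 and 14.7 against 24.2 and 18.5 TPM for TRIML2. The difference of the effects was called for both, at 1.18 (adjusted p = 0.0411) and 2.30 (adjusted p = 0.00716). Against HCT116 shScr, UF1hypo shScr was higher in PML (1.04, adjusted p = 0.0160) and had a log2 difference of -0.64 in TRIML2 (adjusted p = 0.177). MID1, MID2, BSPRY and RNF135 were not called in any comparison, and MEFV and TRIML1 did not exceed 1 TPM.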

How the data were processed

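Reads were cleaned with Fastp by the authors, who used HISAT2 2.0.4 for the alignment to GRCh38 and StringTie 2.1.4 for the quantification of genes. The coverage values deposited by the authors are read depths per base, not scaled for library size. The FPKM values deposited by the authors are scaled for gene length and aligned bases, and the TPM values deposited by the authors for gene length and to a common total per library. Coverage divided by FPKM gave the aligned bases. The files hold no counts, so count models were not used.

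Gene IDs were matched to GENCODE version 44 (60463 of 60649), and 19942 protein-coding genes were kept. All 8 libraries entered 1 fit of log2(TPM + 1) on the 4 groups in limma 3.58.1 (R 4.3.3), with a trend of the moderated variances on mean expression, 4 residual degrees of freedom, and Benjamini-Hochberg adjustment over all genes tested. A gene was tested in a comparison where its TPM exceeded 1 in at least 1 of that comparison's libraries. Coordinates are those of the files, and promoter windows and sequences come from RefSeq (GRCh38.p14).

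The members and gene lists were chosen with earlier results of these data known. Named genes are UHRF1, every interferon-responsive member, the other members called in any comparison, the 5 other members with the highest mean TPM, and members on which a count of 5 or fewer falls. Alternatives covered the pseudocount (0.1), the filter on low TPM, the genes and the libraries in the fit, FPKM, a median-ratio scaling, a quantile normalization, the variance trend, GC content with transcript length, a replicate block and the omission of single libraries. Library weights and a crossed pairing of replicates were added after seeing the data. Same-numbered libraries of UF1hypo shScr and UF1hypo shUHRF1 deviated in opposite directions (Pearson's r = -0.402 across genes). For all other pairs of groups r lay between -0.0292 and 0.0547. The numbers were therefore not taken as pairs. The relation to GC content, given above, also had opposite signs in these UF1hypo groups, and its part in the deviation was not tested. DNMT1 hypomorphs, DNA methylation and protein sequences were not analysed here.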

Additional observations from a re-analysis of the deposited data

Results flagged for a closer look

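The effect of UHRF1 knockdown differed between the lines, by the test of the difference itself, in 3 of 49 members, beside 5.09% of all genes. TRIM14 rose in UF1hypo (0.81) and had a value of -0.38 in HCT116, which gave a difference of 1.18 on the log2 scale (limma, adjusted p = 0.0271). TRIM55 (3.15, adjusted p = 7.86e-04) and TRIM29 (1.58, adjusted p = 0.0187) rose in UF1hypo from a low level and stayed under 1 TPM in HCT116. They entered this test only through UF1hypo libraries, in which they were high. With a pseudocount of 0.1 the calls of TRIM55 (2.44, adjusted p = 0.0920) and TRIM29 (1.38, adjusted p = 0.265) were lost. That of TRIM14 was lost with the replicate block (adjusted p = 0.0602), with library weights (0.0601) and without any single library other than those of UF1hypo shUHRF1 (0.0637 to 0.148). In TRIM14 and 4 further members both knockdown libraries lay on one side of the controls in UF1hypo and on the other side in HCT116, as in 10.2% of all 13781 genes. The 4 are TRIM35 (0.37 and -0.16), TRIM36 (0.32 and -0.33), TRIM15 (0.13 and -0.31) and TRIM45 (-0.06 and 0.27), and their differences did not pass the test (adjusted p from 0.270 to 0.603).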

How the results depend on the processing

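With no counts deposited, depth limits low genes by an unknown amount. Calls are said to be lost or gained as counts, and the cause was not tested. The number of all genes called also differed between settings, so a change in these counts need not be particular to the family. Each gene named by the rule was refitted under every alternative in each comparison where it was tested, and of 1300 values 1194 kept direction and side of the threshold, 55 lost the threshold, 29 gained it and 22 changed sign.

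On knockdown in UF1hypo, 4 interferon-responsive members were called with a pseudocount of 0.1 and 4 after GC and length correction, and 2 to 4 with a library left out (others 2 to 4). Their median was 0.95, 0.71 and 0.68 with the pseudocount, quantile normalization and GC correction, and 0.71 to 0.83 with a library left out. The others' median was 0.056 in FPKM, 0.040 after quantile normalization, -0.063 after GC correction and 0.059 to 0.15 with a library left out.

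On knockdown in HCT116, 1 responsive member (TRIM22) was called with the pseudocount of 0.1, with only the 4 libraries compared, after GC correction and with library weights, and 0 with any library left out. The medians were 0.013 to 0.28 (responsive) and -0.15 to -0.065 (others) with a library left out, and -0.089 (others) after GC correction.

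For UF1hypo against HCT116, 2, 3 and 2 responsive members were called with no filter, in FPKM and with the replicate block, and 1 to 2 with a library left out. Their median was 0.93 with a filter on mean TPM and 0.80 to 0.95 with a library left out. Of the others 0 were called in FPKM, and their median was 0.0016 (no filter), -0.12 (FPKM), -0.10 (median-ratio scaling), -0.12 (quantile), -0.037 (GC correction) and -0.12 to -0.061 (a library left out).

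For the difference of effects, 2, 0 and 0 responsive members were called in FPKM, with the replicate block and with library weights, and 0 to 5 with a library left out. Their median was 0.72 in FPKM, 0.66 after quantile normalization and 0.69 to 1.00 with a library left out. Of the others 0 were called with the pseudocount, 1 with library weights and 1 to 4 with a library left out. Their median was 0.10 (median-ratio), 0.021 (quantile), -0.025 (GC correction) and 0.10 to 0.36 (a library left out). Quantile normalization moved the median of all genes in this comparison from 0.08 to -0.06. The fit of only the 4 libraries compared is not possible for a difference that needs all 8.

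The replicate block left 2 responsive and 2 other members called in UF1hypo and 0 of either in HCT116. It left 1 other member called between the lines and 2 for the difference. Crossing the pairs in UF1hypo, chosen after seeing the data, gave 2 and 3.

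These log2 values changed sign. On knockdown in UF1hypo, TRIM47 was at -0.13 and TRIM27 at -0.063 after GC correction. On knockdown in HCT116, TRIM47 was at -0.0058 in FPKM and -0.0042 after GC correction. Between the lines TRIM11 was at -0.19 after GC correction. For the difference, TRIM47 was at -0.0094 (quantile) and -0.13 (GC correction). With a library left out, log2 values on knockdown in UF1hypo ranged from -0.063 to 0.35 for TRIM47, from -0.076 to 0.31 for TRIM27, from -0.20 to 0.63 for TRIM34 and from -0.32 to 0.10 for TRIM8. On knockdown in HCT116 they ranged from -0.042 to 0.061 for TRIM47, from -0.010 to 0.38 for TRIM6, from -0.11 to 0.15 for TRIM25 and from -1.06 to 0.45 for TRIM34. Between the lines they ranged from -0.57 to 0.23 for TRIM31 and from -0.086 to 0.17 for TRIM11. For the difference they ranged from -0.24 to 1.27 for TRIM34, from -0.073 to 0.34 for TRIM47 and from -0.24 to 0.51 for TRIM38.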
